A study of Mus musculus with 6 samples.

Results

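The genes described here are the heparanases Hpse and Hpse2 and 8 core proteins that carry heparan sulfate, 10 of the 48709 mouse genes in the count table, measured by RNA-seq in whole mouse cochlea. They were taken by symbol: the syndecans Sdc1, Sdc2, Sdc3 and Sdc4, the glypicans Gpc1 and Gpc4, perlecan (Hspg2) and agrin (Agrn), which is a selection of the core proteins and not every one. Hpse was chosen by its measured difference in counts between the groups of these same libraries, so that difference is given as a description without a test, and the others were taken for what they do. All 10 passed the filter on low counts.

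DFNB39 is a recessive form of deafness linked to HGF, and these mice model it. The study compared the cochleae of 3 wild-type littermates (Hgf+/+) with those of 3 mice homozygous for an engineered allele (Hgfdel10Neo/del10Neo, called knock-in here) that lacks 10 bp of intron 5 of Hgf and whose name includes Neo, a resistance gene used in making such alleles. The mice were between 5 and 27 weeks old, and the sources used here do not give age, sex or litter for single mice. Whole cochleae were pulverized, so each library mixes all cell types of the dissected piece.

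Heparan sulfate is a long sulfated sugar chain built onto a small set of core proteins. Syndecans span the cell membrane, glypicans are held to it by a lipid anchor, and perlecan and agrin lie in basement membranes. The chains bind growth factors, hepatocyte growth factor (HGF) among them, and heparanase is the enzyme that cuts the chains inside lysosomes and in the matrix.

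Libraries held between 24005234 and 42312291 gene counts. Levels are given as CPM, counts scaled to a common library size with TMM factors. Hgf, the targeted gene, measured 15.4, 16.3 and 15.2 CPM in wild-type and 9.24, 10.4 and 10.5 CPM in knock-in (replicates 1, 2 and 3 in this order here and below), with the groups apart. Its log2 fold change of -0.63 did not pass here (edgeR adjusted p = 0.246) and did in the authors' deposited table (-0.64, adjusted p = 0.0149). Reads of Neo were at the wild-type level in the library labelled knock-in replicate 3 (5 counts, against 71 and 199 in the other knock-in libraries and 5, 8 and 10 in wild-type), although its Hgf was low. Each fold change of the 10 genes is therefore also given without that library. Xist reached 25380 counts in wild-type replicate 2 and 17489 in the library labelled knock-in replicate 3, and at most 30 elsewhere. Leaving out the library labelled knock-in replicate 3 therefore also removes the only knock-in library with high Xist. Every hair cell marker searched was detected in all libraries, with a summed level of 121.5 to 133.5 CPM. Neutrophil markers summed to 8892 to 12580 CPM.

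The start regions of Hpse and of pigment genes are shown first because several pigment genes were, like Hpse, lower in the knock-in libraries. Hpse was chosen for that difference, so a likeness in pattern to such genes follows partly from the choice. RefSeq (GRCm38.p6) gave a start region for 8 of the 10 genes, and not for Sdc2 and Gpc1. The 250 bases before the start are printed 5′ to 3′ on the gene's own strand, with capitals marking TCATGTG, the core of the motif known from promoters of melanin genes, and GGGCGG, a GC box, on either strand. For Hpse the window is chr5:100719717-100719966, for Hpse2 it is chr19:43388356-43388605, for Dct chr14:118052247-118052496 and for Tyr chr7:87493513-87493762, all 4 genes on the reverse strand.
Hpse: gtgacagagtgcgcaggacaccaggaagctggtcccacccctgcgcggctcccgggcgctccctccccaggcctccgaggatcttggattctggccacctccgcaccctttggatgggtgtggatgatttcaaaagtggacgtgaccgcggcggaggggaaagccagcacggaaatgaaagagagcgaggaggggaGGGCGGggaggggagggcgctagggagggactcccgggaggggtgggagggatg
Hpse2: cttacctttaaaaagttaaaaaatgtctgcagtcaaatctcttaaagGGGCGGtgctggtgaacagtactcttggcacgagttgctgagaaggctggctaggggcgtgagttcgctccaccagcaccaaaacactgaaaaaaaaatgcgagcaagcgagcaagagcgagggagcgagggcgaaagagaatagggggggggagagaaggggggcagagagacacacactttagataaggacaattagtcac
Dct: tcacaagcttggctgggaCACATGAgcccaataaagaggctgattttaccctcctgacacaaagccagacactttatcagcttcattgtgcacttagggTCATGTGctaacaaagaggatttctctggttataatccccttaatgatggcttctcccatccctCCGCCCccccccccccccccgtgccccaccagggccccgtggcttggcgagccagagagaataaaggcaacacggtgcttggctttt
Tyr: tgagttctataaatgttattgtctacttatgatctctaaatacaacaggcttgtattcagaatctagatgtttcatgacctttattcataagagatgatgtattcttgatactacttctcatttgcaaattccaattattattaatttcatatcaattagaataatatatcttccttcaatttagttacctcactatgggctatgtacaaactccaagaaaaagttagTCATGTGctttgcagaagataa

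The Hpse window held 1 GC box, 54 bases before the start, and no TCATGTG. In Hpse2 the GC box began 203 bases before the start. Dct, the gene of the melanin enzyme dopachrome tautomerase, held TCATGTG on both strands, and Tyr, the tyrosinase gene, held it 22 bases before its start. Of the 13 pigment and intermediate cell genes listed, 9 had a window and 5 of them held TCATGTG (Dct, Kcnj13, Trpm1, Tyr and Tyrp1). Among the windows of the 8 heparan sulfate genes 0 held TCATGTG or the shorter CATGTG that it contains, and 0 held CACGTG or TCACGTGA. All 8 held GGGCGG, from 1 copy in Hpse, Hpse2 and Gpc4 to 12 in the first of 2 windows of Agrn. Of all 32851 RefSeq windows of this length, 3.25% held TCATGTG, 12.3% CATGTG, 6.02% CACGTG, 0.785% TCACGTGA and 32.7% GGGCGG. A match describes letters in a window and is not a binding site.

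Compared per length of annotated exon, as RPKM, CPM divided by exon length in kilobases, the genes differed widely in level. Sdc4, a syndecan of focal adhesions, was the highest of the 10, at 61.9 ± 4.87 RPKM (SD, n = 6), and its lowest library stood above every library of the others. Gpc1, a glypican found in nerve and other adult tissues, and Sdc2 followed at 25.4 ± 2.67 and 23.1 ± 2.79 RPKM (SD, n = 6 each), with overlapping ranges. Sdc3, the syndecan of neural tissue, and Hspg2, the large basement membrane proteoglycan, were at 16.8 ± 2.2 and 16.7 ± 2.93 RPKM (SD, n = 6 each) and could not be ranked. Agrn, Gpc4 and Sdc1 were lower, at 8.04 ± 0.881, 7.0 ± 0.764 and 5.91 ± 0.89 RPKM (SD, n = 6 each), with ranges that overlapped between neighbours.

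Hpse held a different place in this order in each group. In wild-type cochlea it was at 11.9 ± 0.61 RPKM (SD, n = 3), above every library of Agrn, Gpc4 and Sdc1. In knock-in cochlea it was at 5.95 ± 0.587 RPKM (SD, n = 3), within the range of Sdc1 and below every library of Agrn. Hpse2, which encodes a relative of heparanase that lacks its enzyme activity and binds heparan sulfate, was the lowest of the 10 at 0.292 ± 0.0694 RPKM (SD, n = 6). Among the 20733 genes tested, Sdc4 was at the 97.9th percentile of level per length over all libraries and Hpse2 at the 7.79th.

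**Figure D1:**
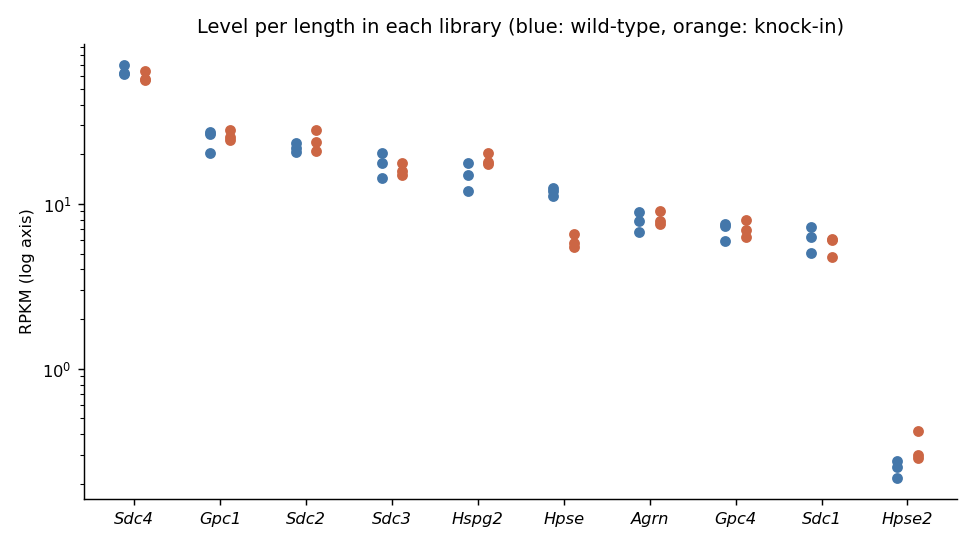
Level per length (RPKM, log axis) of each of the 10 genes in each of the 6 libraries, wild-type in blue and knock-in in orange, ordered by mean level. Sdc4 lies at the top at 56.2 to 69.9 RPKM and Hpse2 at the bottom at 0.217 to 0.42 RPKM, and Hpse is the gene whose colours separate most.

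Hpse (ENSMUSG00000035273), the gene of heparanase, lies at chr5:100679484-100719716 (reverse strand, GRCm38) and overlaps no other annotated gene. It measured 42.1, 43.7 and 39.4 CPM in wild-type and 19.3, 23.2 and 20.2 CPM in knock-in. Each knock-in library lay near one level and below each wild-type library, and the spread within a group was small (2.15 CPM SD in wild-type and 2.06 in knock-in, n = 3 each). The mean in knock-in was 50.1% of that in wild-type, a log2 fold change of -1.0 (SE 0.11), 1.99-fold lower. Without the library labelled knock-in replicate 3 it was -0.97, and over all single libraries left out it ranged from -1.08 to -0.94. In the authors' deposited table, whose mean signal for Hpse was 929.3 size-factor-scaled counts, the log2 fold change was -1.0 (SE 0.13).

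Hpse2 (ENSMUSG00000074852, chr19:42786539-43388355, reverse strand), the inactive relative, measured 1.17, 1.28 and 1.0 CPM in wild-type and 1.33, 1.95 and 1.39 CPM in knock-in. These rest on 29 to 57 counts a library. All 3 knock-in libraries lay above all 3 wild-type libraries, by a narrow margin and with knock-in replicate 2 furthest up. Of all genes tested, 4.71% were separated in this direction. The log2 fold change was 0.44 (SE 0.24, 95% interval -0.11 to 0.99) and did not pass the threshold (edgeR adjusted p = 0.966). It was 0.51 without the library labelled knock-in replicate 3 and 0.24 without knock-in replicate 2. An annotated pseudogene on the opposite strand, Gm6776, lies within Hpse2 and had 38 counts in all 6 libraries together.

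The makeup of the heparanase pair differed between groups. Per length, Hpse2 was 2.06%, 2.18% and 1.9% of the pair in the wild-type libraries and 4.97%, 5.98% and 4.95% in the knock-in libraries. Hpse was thus the main heparanase RNA in every library, at no less than 94.0% of the pair. This difference follows from the choice of Hpse and is a description.

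**Figure D2:**
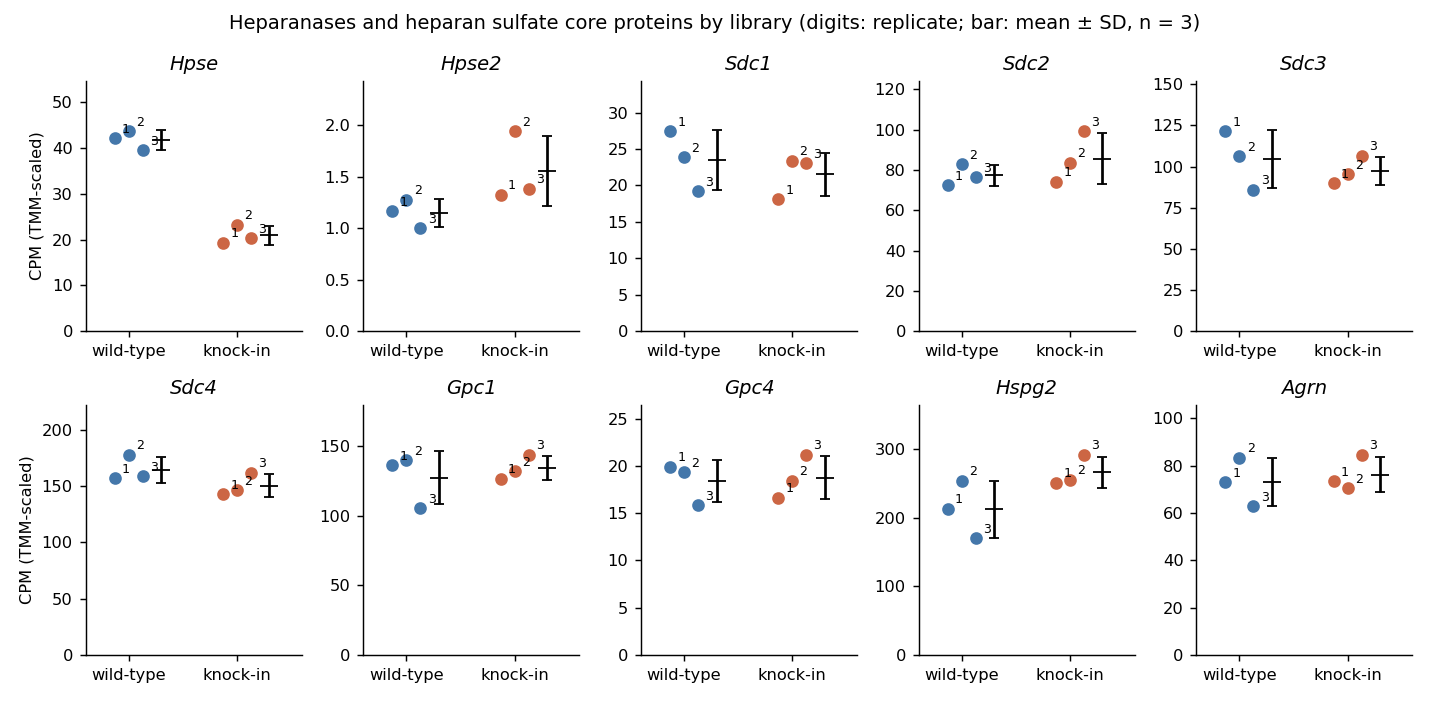
CPM of each gene in each library, with the replicate number beside each point and the mean ± SD of 3 libraries beside each group, on axes that start at 0. The groups are apart for Hpse, at 39.4 to 43.7 against 19.3 to 23.2 CPM, and narrowly for Hpse2, and overlap for the 8 core proteins.

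Of the other 9 genes, 0 passed the threshold of adjusted p 0.05 in edgeR's quasi-likelihood test over all 20733 genes, and 0 had an unadjusted p under 0.05. DESeq2 and limma-voom on the same counts also called 0 of the 9. Across all genes edgeR called 0.0338% (0.0241% lower and 0.00965% higher in knock-in), so a count of 0 in 9 genes is near the background. Their log2 fold changes had a median of 0.058, with 6 above and 3 below zero, beside 0.0008 over all genes tested.

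The CPM of the 4 syndecans overlapped between the groups. Sdc4 (ENSMUSG00000017009, chr2:164424247-164443887, reverse strand) was at 157, 178 and 159 CPM in wild-type and 143, 147 and 162 CPM in knock-in, with the knock-in library labelled replicate 3 inside the wild-type range (log2 fold change -0.13, 95% interval -0.36 to 0.1). The fold change was -0.19 without that library and -0.07 without wild-type replicate 2. Sdc2 (ENSMUSG00000022261, chr15:32920723-33034935, forward strand), a syndecan of mesenchymal cells, was at 72.5, 82.9 and 76.5 CPM in wild-type and 74.2, 83.5 and 99.3 CPM in knock-in. Its highest value was in the library labelled knock-in replicate 3, and the fold change went from 0.15 (95% interval -0.12 to 0.42) to 0.027 without that library and to 0.25 without knock-in replicate 1.

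Sdc3 (ENSMUSG00000025743, chr4:130792537-130826319, forward strand) was at 122, 106 and 85.9 CPM in wild-type, a wide spread that enclosed the knock-in values of 89.7, 95.2 and 107 CPM. Sdc1 (ENSMUSG00000020592, chr12:8771323-8793715, forward strand), the syndecan of epithelia and plasma cells, was at 27.5, 23.9 and 19.2 CPM in wild-type and 18.1, 23.4 and 23.0 CPM in knock-in. Both genes were highest in wild-type replicate 1, and Sdc3 and Sdc1 had log2 fold changes of -0.11 (95% interval -0.41 to 0.2) and -0.13 (95% interval -0.47 to 0.22). The sign of Sdc3 turned to 0.015 without wild-type replicate 1, and Sdc1 went to -0.0027. Leaving out knock-in replicate 1 gave -0.047 for Sdc3 and -0.012 for Sdc1, and leaving out wild-type replicate 3 gave -0.23 and -0.26. Without the library labelled knock-in replicate 3 they were -0.18 each. Plasma cell markers, Sdc1 among them, summed to 307 to 412 CPM in wild-type and 302 to 363 CPM in knock-in, and markers of surface epithelium to 197 to 231 and 196 to 227 CPM. The plasma cell sum was highest in wild-type replicate 1, as was Sdc1, and its part in that level was not tested.

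Within the syndecan family the order of the shares per length was the same in all 6 libraries. Sdc4 made up 55.0% to 60.3% of the family, Sdc2 18.7% to 24.4%, Sdc3 13.9% to 18.5% and Sdc1 4.88% to 6.57%. The Sdc2 share was 18.72%, 20.03% and 20.97% in wild-type and 21.7%, 22.9% and 24.4% in knock-in, without overlap and 3.09 points higher on average. The exact two-sided permutation test gave p = 0.1, the smallest that 3 against 3 libraries allow, and adjusted p = 0.8 over the 10 syndecan and glypican shares compared.

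The 2 glypicans overlapped between the groups. Gpc1 (ENSMUSG00000034220, chr1:92831645-92860779, forward strand) was at 136, 140 and 106 CPM in wild-type and 127, 132 and 144 CPM in knock-in (log2 fold change 0.077, 95% interval -0.2 to 0.36). Gpc4 (ENSMUSG00000031119, chrX:52053021-52165252, reverse strand), an X-linked glypican, was at 19.9, 19.3 and 15.8 CPM in wild-type and 16.7, 18.4 and 21.2 CPM in knock-in (log2 fold change 0.03, 95% interval -0.27 to 0.33). Both had their minimum in wild-type replicate 3 and their maximum in the library labelled knock-in replicate 3. Leaving out the first of these turned the sign for both, to -0.045 for Gpc1 and -0.07 for Gpc4. Leaving out the second gave 0.023 for Gpc1 and -0.066 for Gpc4. Over all single libraries left out, Gpc1 reached up to 0.15 and Gpc4 up to 0.11. The value for Gpc4 was 0.022 with Xist as a covariate.

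The opposite strand of Gpc1 carries Ankmy1 and the antisense genes Gm29480 and Gm29481, with 194, 373 and 112 counts over all libraries. How the authors' counting treated strand is not given in the sources used here. Of the 6 glypicans, Gpc1 made up 52.6% to 56.9% per length and Gpc4 14.5% to 16.2%, and the remainder was mostly Gpc3 and Gpc6.

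Of the basement membrane core proteins, Hspg2 had the largest fold change of the 9 genes after Hpse2. Hspg2 (ENSMUSG00000028763, chr4:137468769-137570630, forward strand) was at 213, 254 and 171 CPM in wild-type and 251, 256 and 292 CPM in knock-in. Wild-type replicate 2 reached the lower knock-in values, and wild-type replicate 3 was low. The log2 fold change was 0.32 (SE 0.15, 95% interval -0.01 to 0.66) and did not pass (edgeR adjusted p = 0.966). Leaving out wild-type replicate 3 gave 0.19, and leaving out the library labelled knock-in replicate 3 gave 0.25. In the authors' deposited table Hspg2 had an unadjusted p of 0.0397 and an adjusted p of 0.9997.

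Agrn (ENSMUSG00000041936, chr4:156165290-156197488, reverse strand), which organizes the nerve-muscle synapse and lies in basement membranes, was at 73.0, 83.4 and 63.0 CPM in wild-type and 73.4, 70.5 and 84.6 CPM in knock-in. The groups overlapped almost fully, with a log2 fold change of 0.058 (95% interval -0.22 to 0.34). Leaving out wild-type replicate 3 turned it to -0.042, and leaving out the library labelled knock-in replicate 3 to -0.025, while without wild-type replicate 2 it was 0.16. Skeletal muscle markers summed to 3190 to 4929 CPM in wild-type and 2382 to 3986 CPM in knock-in, and endothelial markers to 421 to 537 and 439 to 552 CPM.

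Hspg2 and Agrn were both lowest in wild-type replicate 3 and highest in the library labelled knock-in replicate 3. The endothelial sum was lowest and highest in the same libraries. Adipocyte markers summed to 384, 175 and 809 CPM in knock-in, against 102 to 196 CPM in wild-type. Cartilage markers summed to 246, 572 and 484 CPM in knock-in, against 192 to 303 CPM in wild-type. Both sums overlapped between the groups. All 7 listed adipocyte genes and all 7 cartilage genes nevertheless had log2 fold changes above zero (medians 1.53 and 1.14). In edgeR 0 of them were called, near the background of 0.0338% of all genes. Some genes of each list, such as Plin1 and Col10a1, had all knock-in libraries above all wild-type libraries, as 4.71% of all genes had. The part of these cells in the level of Hspg2 was not tested.

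**Figure D3:**
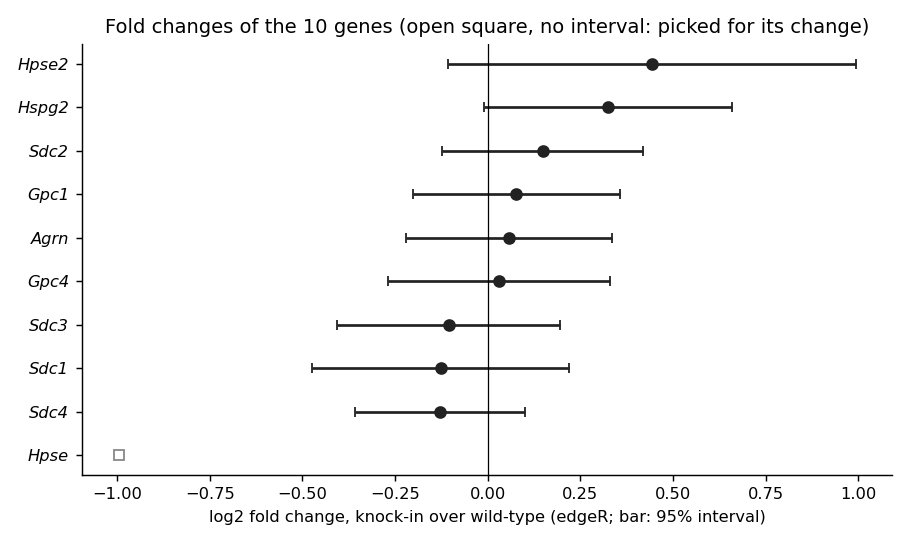
The log2 fold change (knock-in over wild-type) of each gene on the horizontal axis, with the 95% interval of the edgeR fit as bars. Hpse, an open square without an interval, was picked for its change. Every interval drawn for the other 9 genes contains zero, and that of Hpse2 is the widest, from -0.11 to 0.99.

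Over the 6 libraries some core proteins varied together. The highest Pearson correlations of log2 CPM among the 10 genes were 0.91 for Sdc1 with Sdc3, 0.9 for Gpc1 with Gpc4 and 0.89 for Gpc1 with Agrn. The lowest were -0.63 for Hpse with Hspg2 and -0.58 for Hpse with Hpse2. All are over the same 6 libraries, which share scaling and tissue makeup, and the values for Hpse carry the group difference it was picked for.

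The genes most like Hpse in level across the 6 libraries, by Pearson correlation of log2 CPM among 12809 genes with a mean of at least 5 CPM, were Hgf (0.99), Dct (0.99), Kctd15 (0.98), Lhfpl2 (0.98) and Nagk (0.98), the last a kinase of the sugar N-acetylglucosamine. Hgf, the targeted growth factor gene, came first under this limit on level. The pigment genes Mlana and Tyr, below that limit, had a correlation of 0.99 each. The other listed pigment genes ranged widely. Slc45a2 was at 0.98, Gpnmb at 0.96, Trpm1 at 0.93, Mitf at 0.79, Tyrp1 at 0.74 and Kcnj13 at 0.64. Ednrb, Sox10, Pmel and Kit were lower, at 0.61, 0.4, 0.28 and 0.16. The size of the difference was not alike, since in knock-in Hgf was at 64.5% of its wild-type mean, Hpse at 50.1%, Dct at 21.1%, Kctd15 at 89.5%, Lhfpl2 at 81.2% and Nagk at 94.8%. All 5 had every knock-in library below every wild-type library, as the choice by likeness to Hpse favours.

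The summed markers of pigment cells and of strial intermediate cells, the melanocyte-like cells of the stria vascularis, were low in the same libraries as Hpse. The 13 listed genes summed to 318 to 339 CPM in wild-type and 181 to 191 CPM in knock-in, and 0 were at zero in any library. The largest differences in CPM were those of Dct (means of 106 in wild-type and 22.4 in knock-in) and Gpnmb (53.4 and 31.5). The groups overlapped for Tyrp1, Pmel, Kcnj13, Sox10, Ednrb and Kit. The log2 fold change was below zero for each of the 13 (median -0.76). Of these, 4 fell (Dct, Tyr, Mlana and Slc45a2, edgeR adjusted p = 0.000179, 0.0205, 0.0205 and 0.00153). Among all genes 0.0241% were called lower, which is 5 genes, namely these 4 and Hpse. That share is thus not independent of the list, which was chosen with earlier results of these data known. In bulk cochlea, fewer cells of a type and less RNA per cell cannot be told apart.

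The pigment genes differed among themselves, and Hpse lay between them. Slc45a2, a melanosome transporter gene, was at 15.6% of its wild-type mean in knock-in, Tyr at 20.1%, Mlana, a melanosome protein gene, at 23.4%, and Trpm1, a melanocyte channel gene, at 27.0%. Gpnmb, a melanosome glycoprotein gene also active in macrophages, was at 59.0%, the melanin enzyme gene Tyrp1 at 46.7% and the potassium channel gene Kcnj13 at 77.3%. The lineage genes Mitf, Sox10, Ednrb and Kit were at 86.3%, 91.2%, 77.9% and 97.3%, and the melanosome matrix gene Pmel at 93.9%, none of them called.

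Platelets, mast cells, macrophages and neutrophils are known to hold heparanase, and their summed markers overlapped between the groups. Platelet and megakaryocyte markers summed to 432 to 505 CPM in wild-type and 411 to 602 CPM in knock-in, mast cell markers to 83.4 to 104 and 85.9 to 103 CPM, and macrophage markers to 516 to 800 and 567 to 614 CPM. Of the 8 platelet, 7 mast cell, 7 macrophage and 8 neutrophil markers 0 were called in edgeR, which is near the background of 0.0338% of all genes. The summed markers of salivary and other glands stood apart, at 16.6 to 22.0 CPM in wild-type and 35.1, 83.9 and 212 CPM in knock-in. Most of the knock-in sum came from Bpifa2 (7.52, 46.3 and 122 CPM) and Amy1 (18.7, 29.6 and 75.6 CPM). Aqp5 of the same list went the other way, with means of 4.65 CPM in wild-type and 3.94 in knock-in, and overlapped. The saliva gene Car6 had 2, 1 and 0 counts in wild-type and 107, 74 and 178 in knock-in. It passed the filter on low counts only through knock-in, so its counts are a description. Which cells held the Hpse RNA, and the part of pigment or gland cells in its level, was not tested.

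**Figure D4:**
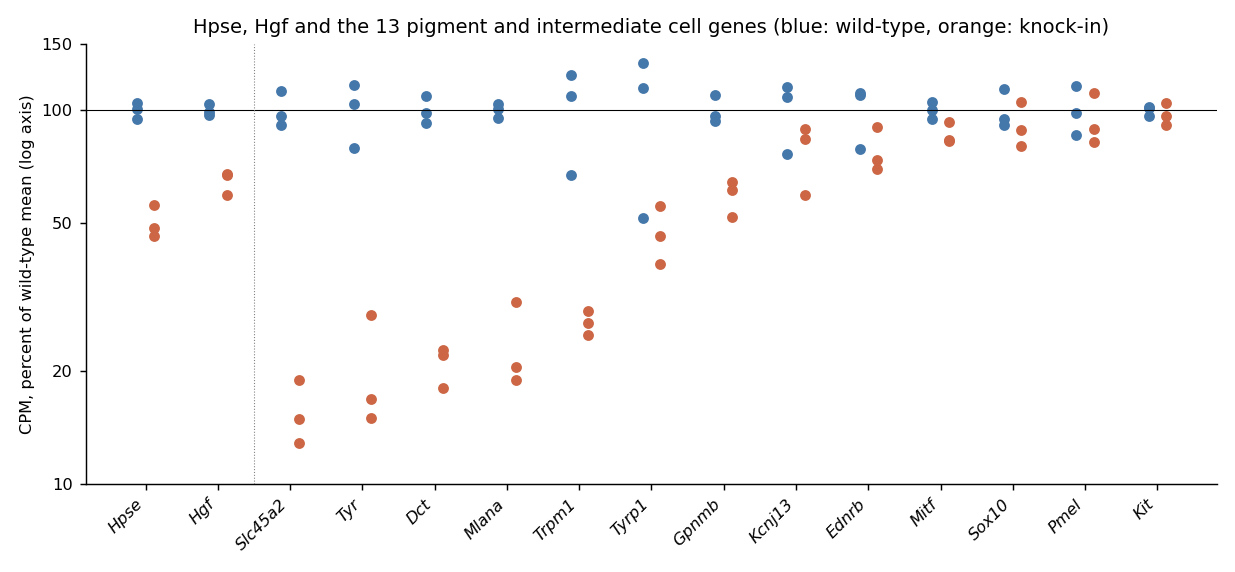
Each library's CPM as a percent of the wild-type mean of the gene (log axis), for Hpse, Hgf and the 13 pigment and intermediate cell genes, wild-type in blue and knock-in in orange. Knock-in values of Hpse lie around 50.1%, between those of Dct at 21.1% and Hgf at 64.5%, and those of Kit and Pmel lie near the wild-type mean.

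Hpse and Hgf lie on the same chromosome, 84.1 Mb apart. The 10 nearest tested protein-coding genes, 5 on each side of Hpse, were chosen after values were seen. They span chr5:100361649-101664996 and had log2 fold changes from -0.19 (Lin54) to 0.18 (Abraxas1), with a median of 0.049. Coq2 and Helq, the closest on either side, were at 0.047 and -0.094. Of the 10, 0 were called in edgeR, and 0 had an unadjusted p under 0.05, counts near the 0.0338% and 4.5% of all genes. The groups were apart for 1 of the 10, Abraxas1 with knock-in higher, beside 8.72% of all genes in either direction.

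The other genes of the heparan sulfate pathway were taken as 6 lists of 75 genes, of which 73 were tested. Of these 0 rose and 0 fell in edgeR, DESeq2 or limma-voom, and 2 had an unadjusted p under 0.05 in edgeR, where 4.5% of all genes had one. The groups were apart for 3 of the 73, beside 8.72% of all genes.

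Among the 10 other core proteins the median log2 fold change was -0.094, with 8 below zero. Spock2, a testican proteoglycan gene of neural tissue, was at 109, 139 and 121 CPM in wild-type and 115, 73.3 and 94.8 CPM in knock-in (log2 fold change -0.38, edgeR adjusted p = 0.966), and its relative Spock3 was at -0.27. Single libraries moved both: Spock2 was at -0.23 without knock-in replicate 2, and Spock3 at -0.049 without wild-type replicate 3 and -0.49 without wild-type replicate 1. Spiral ganglion neuron markers summed to 481 to 693 CPM in wild-type and 355 to 555 CPM in knock-in, lowest in knock-in replicate 2 like Spock2, and their part in it was not tested. Srgn, the proteoglycan of blood cell granules, was at -0.093, and the glypican gene Gpc6 at -0.0033.

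The 12 genes of chain assembly had a median of -0.0077. Ext1 and Ext2, the polymerase that lengthens the chain, were at 0.0015 and 0.037. B3galt6, which adds a sugar of the linker to the core protein, was at 0.22, and Pxylp1, a phosphatase acting on the linker, at -0.21, both with an edgeR adjusted p of 0.966. Pxylp1 was at -0.12 without knock-in replicate 2 and -0.14 without wild-type replicate 1.

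The 22 genes that sulfate or trim the chain had a median of -0.029. Hs3st1, which adds the sulfate group needed for antithrombin binding, was at 8.16, 9.25 and 8.24 CPM in wild-type and 6.97, 5.97 and 6.07 CPM in knock-in. All knock-in libraries lay below all wild-type libraries, as for 4.01% of genes, and the log2 fold change of -0.43 (SE 0.14) did not pass (edgeR adjusted p = 0.966). Papss2, which makes the sulfate donor, was at 0.21, and at 0.13 without the library labelled knock-in replicate 3. Ndst1, an enzyme of the first sulfation step, was at -0.06, and the extracellular sulfatases Sulf1 and Sulf2 were at 0.032 and -0.043.

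The 9 genes of the lysosomal route, in which heparan sulfate is taken apart, had a median of -0.065. Ids, whose enzyme removes a sulfate from iduronic acid, was at 65.5, 68.6 and 64.2 CPM in wild-type and 65.2, 52.3 and 52.9 CPM in knock-in (log2 fold change -0.22), with knock-in replicate 1 at the wild-type level. Gusb, whose enzyme removes glucuronic acid, was at -0.12, and at -0.029 without wild-type replicate 1. Ctsl, the protease that activates heparanase, was at -0.065, with an interval from -0.33 to 0.2.

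Of 10 genes whose products cut or protect core proteins, 8 were tested, with a median of -0.12, since Mmp7 and Plg had at most 5 counts a library. The sheddases Adam10 and Mmp14 were at -0.21 and -0.19, Mmp9 at -0.11, and Prss12, the agrin-cutting neurotrypsin, at -0.28. Adam10 was at -0.1 without the library labelled knock-in replicate 3 and -0.33 without knock-in replicate 1, and Mmp14 at -0.1 without knock-in replicate 1. The 12 binding partners of the core proteins had a median of 0.028. Among them the agrin receptor gene Lrp4 was at 0.16, Musk, its kinase partner, at 0.089, the fibronectin gene Fn1 at 0.25 and Sdcbp2, a syndecan adaptor gene at under 1 CPM, at 0.57, none of them past the threshold (edgeR adjusted p of 0.966 or more).

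**Figure D5:**
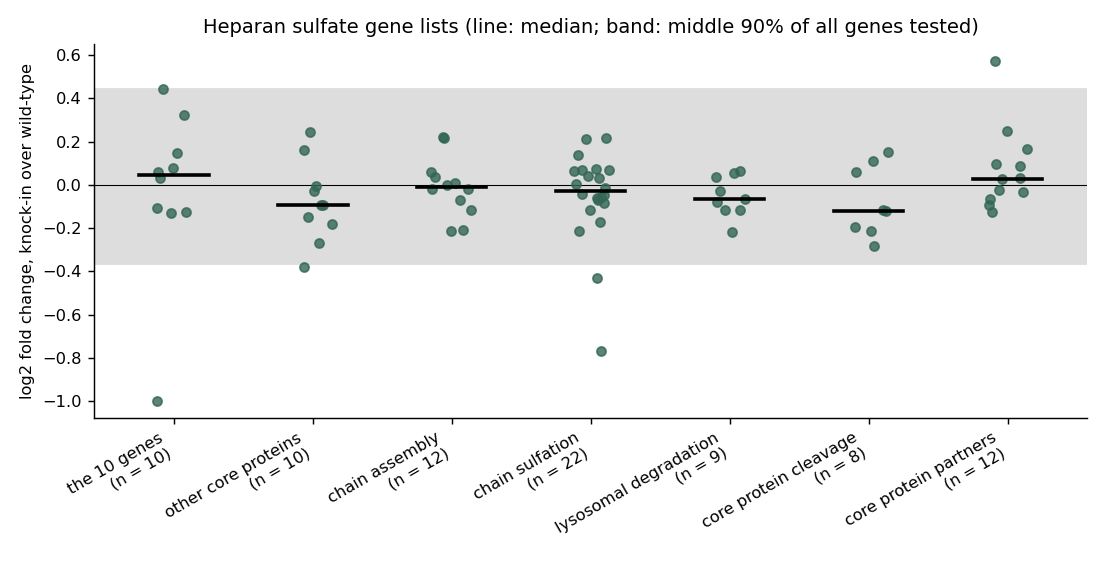
The log2 fold change (knock-in over wild-type) of each tested gene of the 10 genes described and of the 6 pathway lists, with the median as a line and the middle 90% of all genes tested as a band from -0.37 to 0.44. Hpse lies at -1.0, and most other points lie inside the band.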

How the data were processed

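Total RNA of 6 cochleae was depleted of ribosomal RNA, turned into cDNA from random primers and sequenced as paired 93-base reads, per the labels' protocols. STAR 2.5.2 mapped them to GRCm38 (GENCODE M11), per the series text and the submitters' processing notes. No source used here names the read counter. The authors deposited whole-number counts per gene. Their deposited DESeq2 table holds a mean signal (counts over size factors), log2 fold changes, a test score and p-values. Of 48733 rows, 24 were spike-in or transgene sequences (0.0015% to 0.0045% of counts) and were left out of totals and fits.

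Counts were tested with edgeR 4.0.16 (filterByExpr, TMM, glmQLFit and glmQLFTest, group as the only term, two-sided), with Benjamini-Hochberg adjustment over 20733 genes. The script was tested on simulated data. Alternatives were RLE and upper-quartile scaling, other filters, DESeq2 1.42.0, limma-voom (limma 3.58.1), the bias-adjusted fit, an Xist covariate, an adjusted p threshold of 0.1 and single libraries left out. Exact tests used scipy 1.17.1. RPKM used exon unions of GENCODE M21, same build; intervals of fold changes are 95% intervals of the fit.

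The genes, lists, rules and tests were chosen with earlier results of these data known. Besides the 10 genes and Hgf, named genes were those of each pathway list called or with the 2 smallest p, all pigment markers and the 5 most like Hpse; other named list members were chosen after their values were seen, for their known role. No library repeated another (chi-square per degree of freedom 21.0 or more over 15 pairs). The series text describes 3 mice a group; replicates are numbered in accession order, which pairs none.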

Additional observations from a re-analysis of the deposited data

Results flagged for a closer look

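Reads of Neo, a row of the count table outside the comparisons, exceeded every wild-type library in knock-in replicates 1 and 2, at 2.062 and 6.994 CPM without TMM factors. The wild-type libraries held 0.207, 0.275 and 0.236 and the library labelled knock-in replicate 3 held 0.208. Hpse was low in all 3 knock-in libraries, at 19.3, 23.2 and 20.2 CPM.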

How the results depend on the processing

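The log2 fold change of Hpse ranged from -1.08 to -0.94 with single libraries left out and from -1.01 to -0.98 under other fits. Its groups do not overlap and it was chosen for that difference, so its sign could not turn and the ranges describe its size alone. The other 9 genes were called in 0 of the settings tried, as were the 73 tested pathway genes. With a library left out, log2 fold changes ranged from -0.2318 to 0.0154 for Sdc3, -0.0447 to 0.1507 for Gpc1, -0.0705 to 0.1136 for Gpc4 and -0.0421 to 0.1637 for Agrn, so the signs of these 4 depended on single libraries. The background moved: against 5 genes lower and 2 higher, no filter on low counts gave 30 and 46, DESeq2 16 and 12, and the Xist covariate 4 higher. Leaving out libraries gave 2 to 8 lower and 0 to 13 higher: 8 and 13 without knock-in replicate 1, 2 lower without knock-in replicate 3, 3 lower without wild-type replicate 2, and 0 higher without wild-type replicate 1 or 2. With the longest transcript as length, the mean RPKM was 7.13 for Sdc1, 20.3 for Sdc3 and 31.3 for Gpc1. Gpc1 moved further above Sdc2, and Sdc3 further above Hspg2 (16.9). Sdc1 moved from below to just above Gpc4 (7.0), so the order of these genes depended on the length used. No paired analysis was possible because the labels give each library its own number and no number is shared between groups. With 3 mice a group, the 95% intervals of the 8 core proteins lie between -0.47 and 0.66, with that of Sdc4 from -0.36 to 0.1, and that of Hpse2 reaches 0.99. The intervals of these 9 genes all contain zero, so changes within them cannot be told from none.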
